A study of Mus musculus with 8 samples.

Results

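The 33 genes described here encode receptors for glutamate and GABA, the main excitatory and inhibitory transmitters of the brain, and the auxiliary subunits that travel with AMPA receptors. They were taken by symbol from a table of 56980 Ensembl gene IDs: 4 AMPA, 5 kainate and 6 NMDA receptor subunits, 5 metabotropic glutamate receptors, 8 GABA-A and 2 GABA-B receptor subunits, and 3 TARPs (transmembrane AMPA receptor regulatory proteins). All 33 were found and all 33 passed the filter on low counts that left 18905 genes. The 4 low glucose (LG) libraries and the 4 high glucose (HG) libraries come from cultured oligodendrocyte progenitors, the dividing cells that give rise to myelinating oligodendrocytes. In both groups the cells came from the cortices of wild-type (WT) C57BL/6 pups of either sex at postnatal day 6 to 8. They were captured by an anti-PDGFRα antibody, expanded with PDGF-AA and 20 ng/mL bFGF, and then kept with PDGF-AA alone at 10 ng/mL. LG medium was diluted in steps, to 12.5 mM glucose (day 1), 5 mM (day 2) and 2.5 mM (day 3), while HG medium stayed at 25 mM; RNA was taken on day 5. The libraries are numbered 1 to 4 in each group, and their preparation codes are shared by number across LG and HG; numbers 1 and 2 carry the same code, so 4 libraries stand for 3 preparations.

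Oligodendrocyte progenitors are known to receive synaptic input from neurons and to carry ion channels that open on binding glutamate (AMPA, kainate and NMDA receptors) or GABA (GABA-A receptors). Metabotropic glutamate receptors and GABA-B receptors act through G proteins instead. An AMPA receptor is a tetramer of subunits encoded by Gria1 to Gria4, and TARPs bind it, help it reach the cell surface and alter its gating. An NMDA receptor needs the subunit encoded by Grin1 beside one encoded by a Grin2 or Grin3 gene, and the high-affinity kainate subunits encoded by Grik4 and Grik5 need a partner encoded by Grik1, Grik2 or Grik3.

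The Q/R site in the pore of the AMPA receptor is shown for the 4 Gria genes because the make-up of this class is described below. In the mature RNA of Gria2, editing of this codon is known to give a subunit that passes little calcium, whereas the other Gria messages keep the genomic codon. Each line holds 45 bases of coding exon with the codon of the site in capitals, read 5′ to 3′ on the strand of the gene from the GRCm38 (mm10) genome.
Gria1: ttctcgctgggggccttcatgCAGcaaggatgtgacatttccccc
Gria2: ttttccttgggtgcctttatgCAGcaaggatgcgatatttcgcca
Gria3: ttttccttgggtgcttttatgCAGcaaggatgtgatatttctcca
Gria4: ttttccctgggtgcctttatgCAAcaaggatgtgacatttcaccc
These stretches lie at chr11:57243073-57243117 on the plus strand (exon 11 of 16) for Gria1, chr3:80706890-80706934 on the minus strand (exon 11 of 16) for Gria2, chrX:41610244-41610288 on the plus strand (exon 11 of 16) for Gria3 and chr9:4464116-4464160 on the minus strand (exon 12 of 17) for Gria4. The genome holds CAG at the codon in Gria1, Gria2 and Gria3 and CAA in Gria4. Counts per gene do not show editing or splice forms, so neither was measured here.

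Levels are given as TPM, counts per kilobase of merged exons scaled to the same sum in each library, which allows genes of different length to be compared. The most abundant of the 33 were the TARP genes Cacng4, with a mean of 332 TPM over the 8 libraries, and Cacng7, with 254 TPM, followed by the kainate subunit gene Grik5 with 114 TPM. These were the only 3 members with a mean of 100 TPM or more. Grik3 followed with 97.1 TPM, Gria4 with 67.3 TPM, Gria2 with 56.6 TPM, Grin3a with 47.8 TPM, Gria3 with 40.2 TPM, Gabra3 with 32.2 TPM and Grm5 with 28.1 TPM. Cacng4 stood at percentile 97.6 and Grm5 at percentile 63.2 among the 13868 protein-coding genes tested. In this order most neighbours overlapped over the libraries. The 3 exceptions were Cacng7, whose lowest library (181 TPM) was above the highest of Grik5 (132 TPM), Grik4, whose lowest library (19.8 TPM) was above the highest of Grik2 (13.9 TPM), and Grik2, whose lowest library (11.1 TPM) was above the highest of Grik1 (9.01 TPM). With the length of the longest annotated transcript in place of merged exons, Gria2 ranked 5 and Gria4 ranked 7.

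Of the 33, 14 averaged 10 TPM or more, 11 averaged between 1 and 10 TPM and 8 averaged below 1 TPM. The 8 were Grm7, Gabrg3, Grin2d, Gabra5, Grin2c, Grin2b, Grin2a and Grm8. The least abundant was Grm8, which encodes a metabotropic receptor of group III and had 8 to 16 counts per LG library and 5 to 22 per HG library. At such counts the fold changes of Grm8, of the GABA-A α5 gene Gabra5 (9 to 25 counts in LG and 4 to 23 in HG) and of the NMDA subunit gene Grin2c (9 to 19 counts in LG and 12 to 17 in HG) carry a large counting error.

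**Figure D1:**
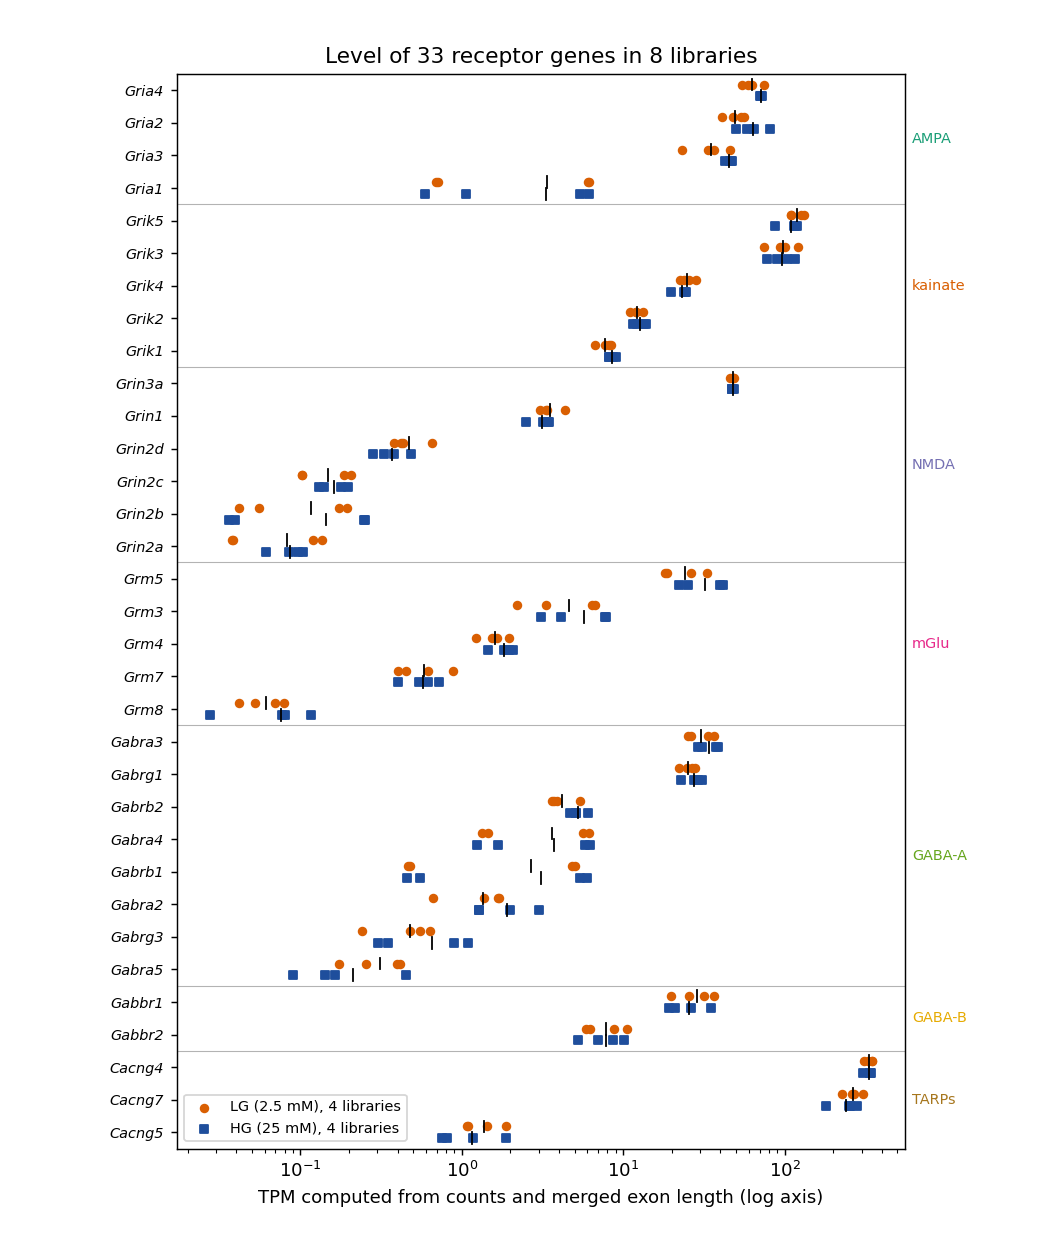
Level of the 33 receptor genes in TPM on a log axis, by receptor class. Each circle is an LG library and each square an HG library (4 each), and the short vertical lines are group means; Cacng4 lies near 332 TPM in both groups, while Gria1, Gabra4 and Gabrb1 split into a high and a low set of libraries within each group.

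Total counts ran from 53869166 to 65733928 in the LG libraries and from 50864130 to 61915909 in the HG libraries. LG was set against HG with a negative binomial model across all 18905 genes (edgeR, quasi-likelihood test), first without a block and then with the replicate number as a block, which compares LG with HG inside each pair of same-numbered libraries. A gene was called at a Benjamini-Hochberg adjusted p under 0.05 over all genes. Fold changes are LG over HG on the log2 scale, so a negative value means lower in LG. Without the block 0 of 33 receptor genes were called, as were 0% of all genes, and 2 receptor genes had an unadjusted p under 0.05, beside 3.94% of all genes. In that design limma-voom called 0 genes and DESeq2 4, none of them a receptor gene. With the block 1 receptor gene was called, Grm5, which was lower in LG; the background was 0.418% of all genes in either direction and 0.307% lower in LG. An unadjusted p under 0.05 with the block was reached by 13 receptor genes (8 lower in LG and 5 higher), which is 39.4% of the 33 beside 13.4% of all genes. Split by direction, these were 24.2% lower in LG beside 7.43% of all genes, and 15.2% higher beside 6.02%. In no receptor gene did the LG and HG libraries fall into ranges that did not overlap; over all genes, 1.82% lay wholly lower and 1.07% wholly higher in LG. The median log2 fold change over the 33 was -0.04 without the block, beside 0.01 over all genes tested. In bulk RNA, fewer cells of a type and less RNA per cell cannot be told apart.

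Grm5 encodes mGlu5, a group I metabotropic receptor that couples to Gq and calcium release. It had 26.4, 32.96, 18.1 and 18.8 TPM in LG libraries 1 to 4, against 41.3, 39.9, 25.4 and 22.3 TPM in HG libraries 1 to 4. Within every pair LG was the lower, while numbers 1 and 2 were above numbers 3 and 4 in both groups, so that the ranges overlapped. The log2 fold change was -0.38 ± 0.25 (SE, edgeR, adjusted p = 0.9999) without the block and -0.38 ± 0.07 (SE, edgeR, adjusted p = 0.0498) with it. The call was lost when the block was the preparation code (edgeR, adjusted p = 0.145), when the counts of numbers 1 and 2 were summed (0.0808), and when pair 1 (0.157), pair 2 (0.192) or pair 3 (0.109) was left out, with log2 fold changes from -0.43 to -0.30 in these fits. It held without pair 4 (0.0493). With numbers 3 and 4 alone, the log2 fold change was -0.36 (adjusted p = 0.9999). Grm5 made up 77.8% ± 1.84 of the summed TPM of its class in LG and 79.7% ± 0.43 in HG (SD, n = 4).

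Of the other metabotropic receptors, Grm3, a Gi-coupled receptor of group II, had 6.38, 6.69, 3.34 and 2.19 TPM in LG libraries 1 to 4 and 7.88, 7.75, 4.10 and 3.09 TPM in HG libraries 1 to 4. LG was lower in 4 of 4 pairs, but the log2 fold change of -0.28 ± 0.12 with the block missed the threshold (SE, edgeR, adjusted p = 0.320). Grm4, a group III receptor, had 1.22, 1.54, 1.65 and 1.97 TPM in LG and 1.46, 1.96, 1.83 and 2.07 TPM in HG, again lower in LG in 4 of 4 pairs and not called (log2 fold change -0.17 with the block, edgeR, adjusted p = 0.601). Grm7 and Grm8, also of group III, were below 1 TPM in every library, and neither was called. The summed level of the class was 31.0 ± 9.09 TPM in LG and 40.4 ± 12.2 TPM in HG (SD, n = 4), and its median log2 fold change was -0.24 without the block. The median of the AMPA class in that fit was also -0.24. The medians were 0.04 for kainate, 0.01 for NMDA, -0.14 for GABA-A and 0.13 for GABA-B subunits, and 0.17 for TARPs. The number of receptor genes lower in LG in all 4 pairs was 5, or 15.2%, beside 11% of all genes; besides Grm3, Grm4 and Grm5 these were Gria3 and Gabra3.

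The 3 abundant AMPA subunit genes had fold changes below 0, and none of them was called. Gria2, which encodes GluA2, had 47.9, 55.8, 40.8 and 53.9 TPM in LG libraries 1 to 4 and 81.0, 65.0, 58.5 and 50.3 TPM in HG libraries 1 to 4. HG 1 was the highest library and LG 3 the lowest, and pair 4 went the other way. The log2 fold change was -0.33 ± 0.14 without the block (SE, edgeR, unadjusted p = 0.0412, adjusted p = 0.9999) and -0.31 ± 0.11 with it (adjusted p = 0.247). Gria3, which encodes GluA3, had 23.2, 36.6, 33.6 and 45.8 TPM in LG and 47.1, 42.6, 46.4 and 46.2 TPM in HG. LG was lower in every pair, by 0.95 on the log2 scale in pair 1 and by 0.06 in pair 4, and LG 4 lay inside the HG range. Its log2 fold change was -0.37 ± 0.16 without the block (SE, edgeR, unadjusted p = 0.0417) and -0.39 ± 0.13 with it (adjusted p = 0.246).

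Gria4, which encodes GluA4, had 54.5, 59.7, 63.0 and 74.5 TPM in LG, and 71.0, 72.0, 72.2 and 71.2 TPM in HG. The HG libraries lay close together while LG spread on both sides of them, and the log2 fold change with the block was -0.16 ± 0.06 (SE, edgeR, adjusted p = 0.312). Gria1, which encodes GluA1, had a log2 fold change of 0.01 ± 0.15 with the block (SE, edgeR, adjusted p = 0.988). Summed over the 4 genes, AMPA subunits reached 151 ± 19.6 TPM in LG and 184 ± 15.2 TPM in HG (SD, n = 4), with LG 4 above HG 4. The shares of the genes in this sum overlapped between the groups. Gria4 held 41.8% ± 3.25 in LG and 39.1% ± 3.23 in HG, and Gria2 held 33% ± 3.33 in LG and 34.3% ± 4.12 in HG (SD, n = 4). Gria3 held 22.8% ± 3.69 in LG and 24.9% ± 2.23 in HG, and Gria1 held 2.34% ± 2.21 in LG and 1.73% ± 1.47 in HG. In the order by the longest transcript, Gria2 took 34.9% of the class over all libraries and Gria4 32.4%, so which of them leads depends on the gene length used.

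The 3 TARP genes among the 33 had fold changes above 0 without and with the block, and none was called. Cacng4 turned to -0.02 with the GC and length offsets. A TARP gene outside the 33, Cacng8, had fold changes below 0 in these fits and is described below. Cacng4, which encodes γ-4, had 310, 347, 327 and 347 TPM in LG libraries 1 to 4 and 306, 340, 341 and 339 TPM in HG libraries 1 to 4. The groups lay within each other's range (log2 fold change 0.04 ± 0.06 with the block, SE, edgeR, adjusted p = 0.796). Cacng7, which encodes the type II TARP γ-7, had 226, 270, 263 and 306 TPM in LG and 181, 250, 280 and 255 TPM in HG. LG was higher in 3 of 4 pairs, with a log2 fold change of 0.18 ± 0.07 that was not called (SE, edgeR with the block, adjusted p = 0.281). Cacng5, the gene of the other type II TARP γ-5, was low, with 1.87, 1.43, 1.08 and 1.09 TPM in LG and 1.18, 1.89, 0.809 and 0.752 TPM in HG. The 3 genes together reached 600 ± 49.1 TPM in LG and 574 ± 58.9 TPM in HG (SD, n = 4).

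**Figure D2:**
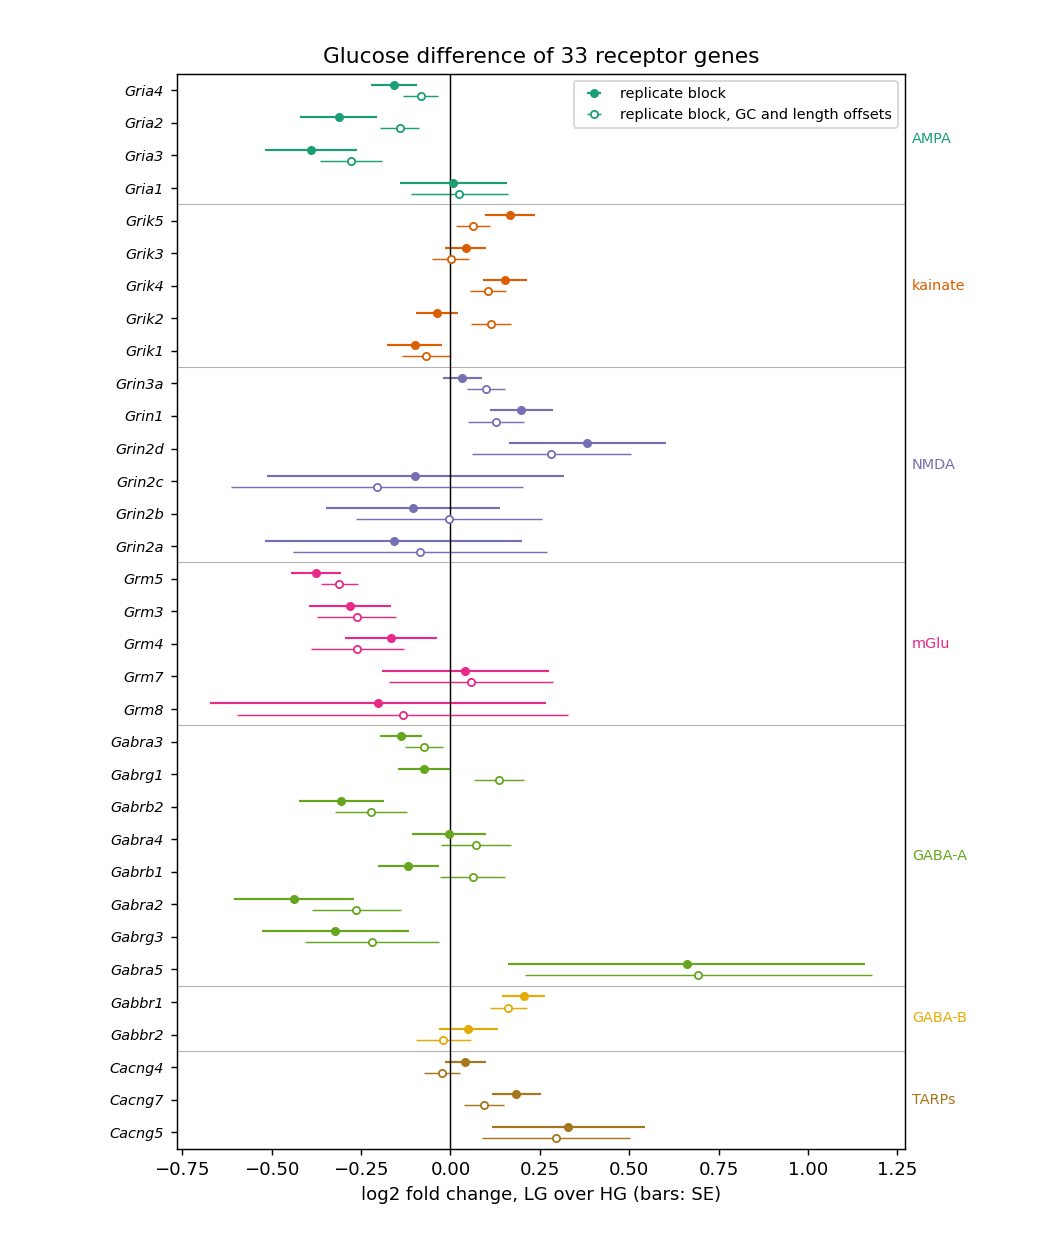
Log2 fold change of each receptor gene, LG over HG, in the fit with the replicate block (filled) and with GC and length offsets as well (open); bars are SE. Grm5 at -0.38 and -0.31 is the gene called in both, and the AMPA genes Gria2, Gria3 and Gria4 move towards 0 with the offsets.

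Kainate receptor RNA was led by Grik5 and Grik3. Grik5, which encodes the high-affinity subunit GluK5, had 110, 126, 110 and 132 TPM in LG libraries 1 to 4 and 86.8, 120, 115 and 115 TPM in HG libraries 1 to 4, where HG 1 was the lowest. Grik3, which encodes GluK3, had 74.3, 94.4, 100.1 and 121 TPM in LG and 77.4, 89.9, 104 and 116 TPM in HG. Both groups of Grik3 spanned the same range and pairs differed by 0.14 or less on the log2 scale. Grik4, which encodes GluK4, had 22.6, 23.7, 25.6 and 28.3 TPM in LG and 19.8, 24.2, 24.0 and 24.4 TPM in HG. After scaling, LG was higher in 4 of 4 pairs for Grik4 (log2 fold change 0.15 ± 0.06, edgeR with the block, adjusted p = 0.310), and Grik5 had 0.17 ± 0.07 (adjusted p = 0.328). Grik1 stayed between 6.67 and 9.01 TPM and Grik2 between 11.1 and 13.9 TPM over all libraries. The class summed to 262 ± 31.6 TPM in LG and 250 ± 30.8 TPM in HG (SD, n = 4), of which Grik5 took 45.7% ± 2.71 in LG and 43.6% ± 2.26 in HG. Grik3 took 37.0% ± 3.34 in LG and 38.5% ± 2.97 in HG.

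NMDA receptor RNA was almost wholly Grin3a, which encodes GluN3A, a subunit known to lower the calcium permeability of the receptor. It had 48.1, 48.7, 46.2 and 47.9 TPM in LG libraries 1 to 4 and 47.5, 48.7, 47.6 and 47.6 TPM in HG libraries 1 to 4. Its coefficient of variation over the 8 libraries, 1.68%, was the smallest of the 33 genes, and Grin3a took 91.7% ± 1.18 of the class in LG and 92.5% ± 0.74 in HG (SD, n = 4). Grin1, the obligatory subunit, had 3.04, 3.36, 3.34 and 4.34 TPM in LG and 2.51, 3.17, 3.42 and 3.46 TPM in HG. After scaling it was higher in LG in 4 of 4 pairs without being called (log2 fold change 0.20 ± 0.09, SE, edgeR with the block, adjusted p = 0.358). The antisense gene Grin1os covers 13.5% of the exon bases of Grin1, and as the strand setting of the counting is not stated, their reads cannot be told apart. Grin2d had 0.418, 0.435, 0.380 and 0.656 TPM in LG and 0.282, 0.380, 0.331 and 0.482 TPM in HG, and the antisense gene Gm45441 covers 9.66% of its exon bases. Grin2a, Grin2b and Grin2c did not exceed 0.252 TPM in any library, and none of the NMDA genes was called. After scaling, receptor genes higher in LG in all 4 pairs numbered 5 (Grik3, Grik4, Grin1, Grin2d and Gabbr1), or 15.2%, beside 10.8% of all genes. Among them, Grik3 differed by only 0.0035 in pair 1, 0.014 in pair 3 and 0.010 in pair 4 on the log2 scale. By TPM, Grik3 was lower in LG in pairs 1 and 3.

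**Figure D3:**
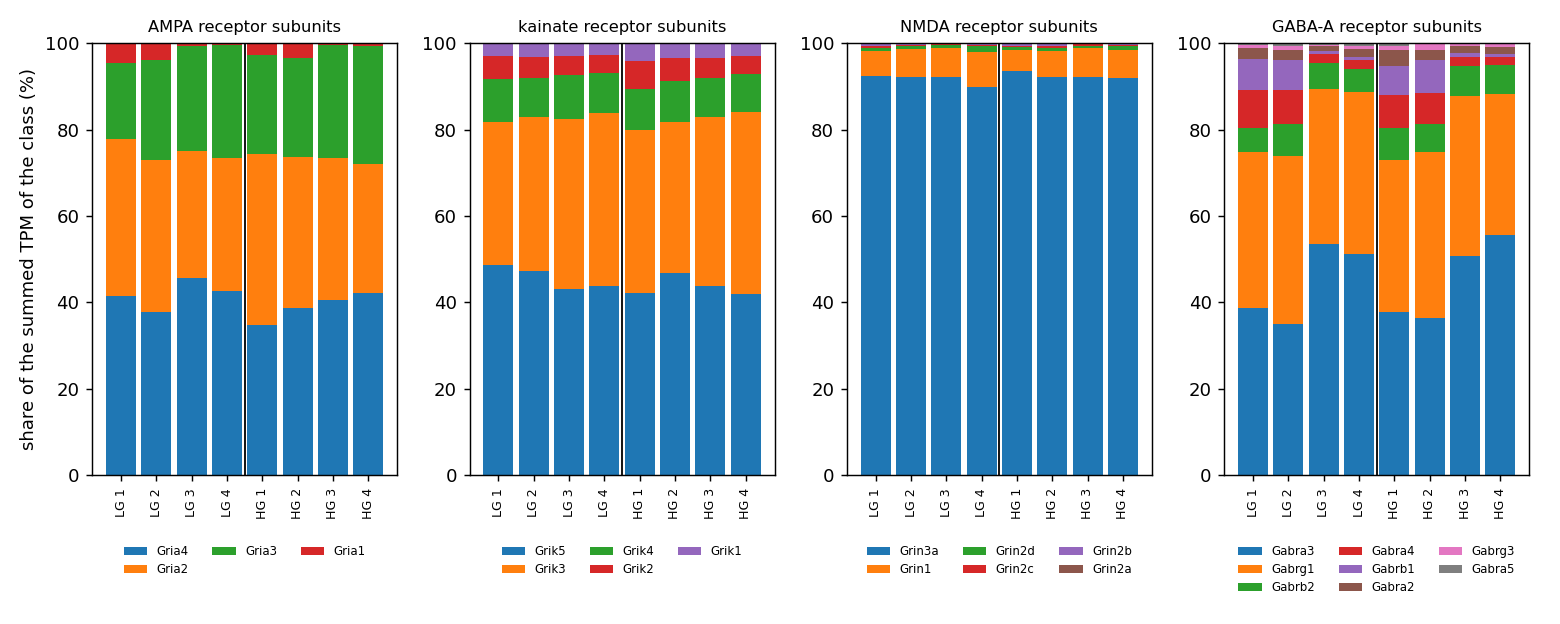
Share of each gene in the summed TPM of its class, in percent, for the 4 LG libraries (left of the line) and the 4 HG libraries (right of it) in each panel. Grin3a holds at least 89.9% of the NMDA class in each of the 8 libraries, and in the GABA-A class Gabra4 and Gabrb1 take larger shares in numbers 1 and 2 of both groups.

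GABA-A receptor RNA was led by the α3 gene Gabra3 and the γ1 gene Gabrg1. Gabra3 had 26.5, 25.1, 33.4 and 36.4 TPM in LG libraries 1 to 4 and 31.0, 29.2, 37.7 and 38.5 TPM in HG libraries 1 to 4. LG was lower in 4 of 4 pairs by similar amounts, but the log2 fold change of -0.14 ± 0.06 was not called (SE, edgeR with the block, adjusted p = 0.336). Gabrg1 had 24.8, 27.8, 22.3 and 26.7 TPM in LG and 28.9, 30.8, 27.6 and 22.7 TPM in HG. The lowest library of LG (22.3 TPM) and that of HG (22.7 TPM) were close, and the ranges overlapped.

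The β2 gene Gabrb2 had 3.74, 5.38, 3.64 and 3.90 TPM in LG and 6.05, 5.12, 5.08 and 4.69 TPM in HG. LG was lower in 3 of 4 pairs, pair 2 being the exception (log2 fold change -0.30 ± 0.12, SE, edgeR with the block, adjusted p = 0.300). The α2 gene Gabra2 had 1.68, 1.71, 0.662 and 1.37 TPM in LG and 3.03, 2.00, 1.27 and 1.28 TPM in HG, with HG 1 highest and LG 3 lowest. Its log2 fold change of -0.44 ± 0.17 was not called (SE, edgeR with the block, adjusted p = 0.293). The class summed to 68.4 ± 4.34 TPM in LG and 76.5 ± 5.69 TPM in HG (SD, n = 4), of which Gabra3 took 44.6% ± 9.14 in LG and 45.1% ± 9.47 in HG. Gabrg1 took 37.1% ± 1.33 in LG and 35.9% ± 2.49 in HG. Of the 8 genes, 6 had a log2 fold change below 0 without the block, and 4 with GC and length offsets.

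The GABA-B receptor is a dimer of the proteins encoded by Gabbr1, which binds GABA, and Gabbr2, which couples to the G protein. Gabbr1 had 31.8, 36.7, 19.9 and 25.7 TPM in LG libraries 1 to 4 and 26.5, 35.0, 19.3 and 20.9 TPM in HG libraries 1 to 4. LG was the higher in 4 of 4 pairs, with a log2 fold change of 0.20 ± 0.06 that missed the threshold (SE, edgeR with the block, adjusted p = 0.187). Gabbr2 had 8.76, 10.5, 5.87 and 6.22 TPM in LG and 8.69, 10.2, 6.96 and 5.28 TPM in HG, with no common direction over the pairs. Gabbr1 held 78.5% ± 1.44 of their sum in LG and 76.5% ± 2.76 in HG (SD, n = 4).

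Many of these genes differed between replicate numbers. In an F test of the number terms in the model with the block, 13 receptor genes were called, 39.4% of the 33 beside 20.5% of all genes. The 13 were Gria1, Grik3, Grin2b, Grm3, Grm5, Gabra2, Gabra3, Gabra4, Gabrb1, Gabrg3, Gabbr1, Gabbr2 and Cacng7. On the scale of CPM (counts relative to the TMM-scaled library size), every library of numbers 1 and 2 was above every library of numbers 3 and 4, whichever the glucose, in 13 receptor genes (39.4%, beside 11.2% of all genes), and below in 4 (12.1%, beside 11.9% of all genes). The 4 were Grik3, Grik4, Grin1 and Gabra3. Numbers 1 and 2 share a preparation code, so this sets 1 preparation against the other 2.

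Gabrb1, Gria1, Grin2b and Gabra4 had the highest ratios of numbers 1 and 2 over numbers 3 and 4, and are singled out here after their values were seen. Gabrb1, the β1 gene, had 4.84 and 5.01 TPM in LG 1 and 2 and 0.465 and 0.479 TPM in LG 3 and 4, and likewise 5.41 and 5.97 TPM in HG 1 and 2 and 0.551 and 0.456 TPM in HG 3 and 4. Its mean CPM in numbers 1 and 2 was 10.7 times that in numbers 3 and 4. The F test of the number terms asks for any difference among the numbers, not for this ratio (edgeR, adjusted p = 2.0e-08). Its error is the spread left within numbers, so it does not measure the spread between preparations. The adjusted p-values that follow come from the same test. Gria1 had 6.12, 6.03, 0.714 and 0.690 TPM in LG libraries 1 to 4 and 5.42, 6.15, 0.591 and 1.06 TPM in HG libraries 1 to 4, a ratio of 7.62 in mean CPM (adjusted p = 1.8e-06). Gabra4, the α4 gene, had 6.14, 5.62, 1.34 and 1.45 TPM in LG and 6.24, 5.83, 1.68 and 1.24 TPM in HG, a ratio of 4.10 (adjusted p = 1.6e-06). Grin2b, the gene of the NMDA subunit GluN2B, had a ratio of 4.94 (adjusted p = 0.00056) at low counts, with 83, 83, 18 and 28 counts in LG libraries 1 to 4 and 105, 94, 17 and 18 counts in HG libraries 1 to 4. In each of the 4 genes the high libraries were numbers 1 and 2 of both groups, with a gap to numbers 3 and 4 and no overlap. Grik3 ran the other way, with a mean CPM in numbers 1 and 2 that was 0.748 of that in numbers 3 and 4 (adjusted p = 0.0018).

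Markers of several cell types moved with the same numbers, those of astrocytes among them. All 12 markers of the astrocyte list differed between numbers, beside 20.5% of all genes. In 10 of them every library of numbers 1 and 2 was on top, which on the scale of CPM held for 11.2% of all genes. S100b ran the other way, with 75.7 to 95.2 TPM in numbers 1 and 2 and 101 to 146 TPM in numbers 3 and 4. The summed level of the 12 was 1150 to 1277 TPM in numbers 1 and 2 and 630 to 686 TPM in numbers 3 and 4. Gfap, the intermediate filament gene of astrocytes, ran from 49.1 to 59.3 TPM in numbers 1 and 2 and from 1.69 to 4.24 TPM in numbers 3 and 4. Between the glucose groups the sum overlapped, at 630 to 1241 TPM in LG and 674 to 1277 TPM in HG. Other lists split by number without overlap in the opposite direction: progenitor markers summed to 6490 to 8065 TPM in numbers 1 and 2 and 8904 to 10152 TPM in numbers 3 and 4, premyelinating markers to 1159 to 1285 TPM in numbers 1 and 2 and 1304 to 1804 TPM in numbers 3 and 4, and myelin markers to 484 to 538 TPM in numbers 1 and 2 and 622 to 854 TPM in numbers 3 and 4. Within the myelin list 8 genes were called between numbers and 7 had every library of numbers 1 and 2 on top, although the sum ran the other way. In the premyelinating list 7 genes were called, and 1 ran against the sum without overlap. This was Enpp6, with 11.6 to 14.6 TPM in numbers 1 and 2 and 1.07 to 5.66 TPM in numbers 3 and 4. The part of these cells in the receptor differences was not tested.

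Among the other lists, progenitor markers summed to 7269 to 10152 TPM in LG and 6490 to 9657 TPM in HG, and all 12 were found. Pdgfra, the panning antigen, had 430 to 633 TPM in LG and 478 to 686 TPM in HG. The 11 premyelinating markers found all had fold changes above 0 without and with the block, and 2 were called with it, beside 0.418% of all genes. Not every pair followed: Enpp6 had 13.3 and 11.6 TPM in LG 1 and 2 and 14.6 and 12.2 TPM in HG 1 and 2. The sums were 1273 to 1804 TPM in LG and 1159 to 1557 TPM in HG. Myelin markers summed to 505 to 854 TPM in LG and 484 to 779 TPM in HG. Neuron markers summed to 677 to 802 TPM in LG and 746 to 941 TPM in HG, and the list was uneven. Of the 12 tested neuron markers, 5 had fold changes above 0 and 7 below 0 without the block, and 0 were called. Gap43 had 305 to 459 TPM in LG and 380 to 578 TPM in HG, and Map2 had 157 to 178 TPM in LG and 164 to 196 TPM in HG. Going the other way, Tubb3 had 59.0 to 68.5 TPM in LG and 45.0 to 63.3 TPM in HG, and Syn1 had 72.9 to 89.4 TPM in LG and 55.7 to 88.7 TPM in HG. Slc17a6, Slc17a7, Gad2 and Stmn2 were below 1 TPM in every library. Mural and fibroblast markers summed to 32.9 to 47.9 TPM in LG and 33.3 to 48.3 TPM in HG, microglial markers to 23.5 to 29.3 TPM in LG and 21.8 to 29.3 TPM in HG, and endothelial markers to 1.57 to 2.53 TPM in LG and 1.38 to 1.99 TPM in HG. Cx3cr1 and Itgam of microglia and Cdh5 and Cldn5 of endothelium were at 0 counts in all 8 libraries. The part of these lists in the receptor values was not tested.

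**Figure D4:**
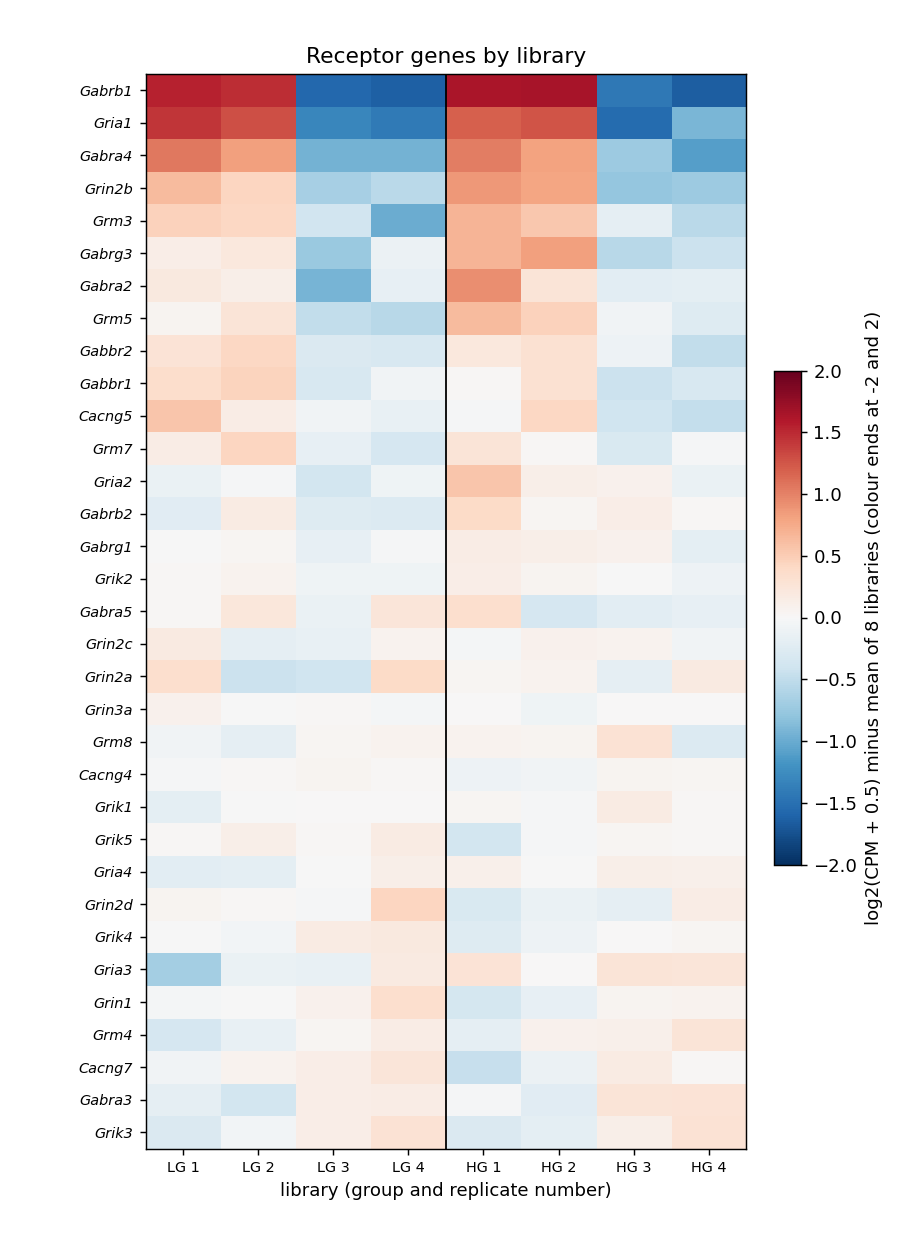
Deviation of each receptor gene from its mean over the 8 libraries, in log2(CPM + 0.5), with LG libraries on the left and HG libraries on the right of the line. Gabrb1, Gria1 and Gabra4 at the top are high in numbers 1 and 2 and low in numbers 3 and 4 of both groups.

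Gabra4 and Gabrb1 lie head to head on chromosome 5, in a cluster with Gabrg1 and Gabra2. In the GENCODE M21 annotation their bodies overlap at chr5:71658113-71658308, with 46 exonic bases in common. Since the strand setting of the counting is not stated, reads in those bases cannot be assigned to either gene. In GENCODE M21 the shared bases make up 0.76% of the exon bases of Gabra4 and 0.33% of those of Gabrb1. The annotation release used for the counts is not stated, so the overlap there may differ. The ratio of their TPM, Gabra4 over Gabrb1, was 1.27, 1.12, 2.88 and 3.03 in LG libraries 1 to 4 and 1.15, 0.976, 3.06 and 2.73 in HG libraries 1 to 4. Thus both genes were lower in numbers 3 and 4, and Gabrb1 by more. Their promoters are printed because the genes moved together over the libraries. Each is 250 bases before to 50 bases after the RefSeq start (GRCm38.p6), 5′ to 3′ on the strand of the gene, with GC boxes (GGGCGG or its complement CCGCCC) in capitals.
Gabra4: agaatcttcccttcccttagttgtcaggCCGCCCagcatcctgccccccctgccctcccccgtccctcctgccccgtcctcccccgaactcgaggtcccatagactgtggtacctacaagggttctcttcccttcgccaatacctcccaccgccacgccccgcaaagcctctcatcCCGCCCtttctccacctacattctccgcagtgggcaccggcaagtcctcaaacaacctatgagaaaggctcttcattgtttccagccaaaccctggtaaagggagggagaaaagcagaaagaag
Gabrb1: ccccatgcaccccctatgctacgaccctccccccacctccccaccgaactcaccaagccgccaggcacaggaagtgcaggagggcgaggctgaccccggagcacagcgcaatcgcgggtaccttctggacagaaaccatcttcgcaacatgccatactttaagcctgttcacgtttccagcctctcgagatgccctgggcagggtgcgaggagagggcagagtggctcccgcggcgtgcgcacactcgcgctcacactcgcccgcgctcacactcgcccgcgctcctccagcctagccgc
The window of Gabra4 is chr5:71658259-71658558 on the minus strand, with 58.7% GC and 12 CG dinucleotides, and that of Gabrb1 is chr5:71657671-71657970 on the plus strand, with 66% GC and 25 CG dinucleotides. The Gabrb1 window ends before the GENCODE start of the gene (71658113), so the RefSeq start used here lies upstream of it. The median over all promoters of this length was 7 CG dinucleotides. A GC box stands in 35.7% of the 32851 RefSeq promoters, counted by window. The 24 receptor genes with a window have 32 windows, and 16 of these genes hold a GC box in at least 1 of theirs. A rate by gene and a rate by window are not alike, so they cannot be compared directly, here or for the motifs that follow. A TATA box (TATAAA) stands in 13.6% of all promoters and in those of Gabra3 and Gabrb2, a Sox core (ACAAAG) in 18.7% and in those of Gabbr1 and Gabra3, and the E-box CAGCTG in 16.3% and in none of the 24, each searched on both strands.

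GC content varied with the fold changes. Over all tested genes, the rank correlation of GC content with the log2 fold change was 0.363 in the unblocked fit and 0.368 in the blocked one. It was -0.028 once GC and length offsets were added to the block. These correlations run across genes, which are not independent. Of the 21 receptor genes below the median GC of tested genes (49.6%), 16 had a fold change below 0 without the block and 13 with the block and offsets, and of the 12 above it 2 and 4 did. The AMPA genes Gria2 (41.3% GC), Gria3 (42.6% GC) and Gria4 (43.8% GC) had log2 fold changes of -0.14, -0.28 and -0.08 with the block and offsets, and none was called. Grm5, with 46.3% GC, kept a log2 fold change of -0.31 ± 0.05 (SE, edgeR with the block and offsets, adjusted p = 0.0102), the only receptor gene called in that fit, where 1.72% of all genes were. An unadjusted p under 0.05 was reached there by 6 receptor genes, or 18.2%, beside 14.4% of all genes. Gabrg1 (35.1% GC), Grik2 (41.6% GC) and Gabrb1 (41.3% GC) turned to fold changes above 0 with the offsets (0.14, 0.11 and 0.06), and Cacng4 and Gabbr2 to values below 0 (-0.02 for both). The offsets left a median log2 fold change of -0.00 over the 33, with 17 below 0 and 16 above.

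**Figure D5:**
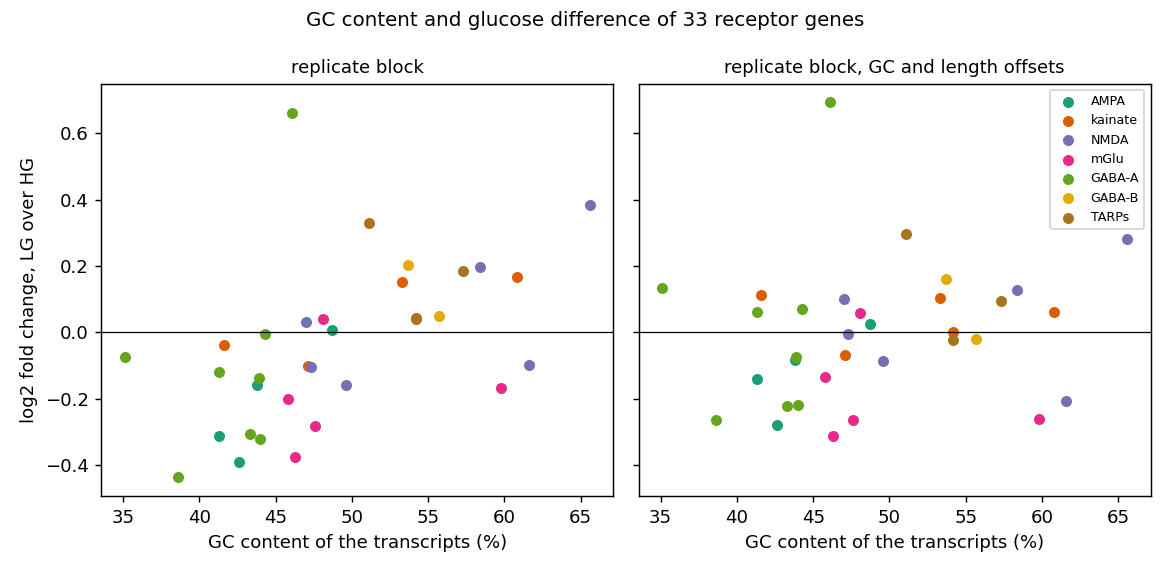
GC content of each receptor gene in percent against its log2 fold change, LG over HG, with the replicate block (left) and with GC and length offsets as well (right), coloured by receptor class. Of the 21 genes below the median GC content of tested genes, 17 lie below 0 on the left and 13 on the right.

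Of 77 other genes of glutamate and GABA signalling, 62 passed the filter on low counts. Without the block 29 were lower and 33 higher in LG and 0 were called (edgeR), with 4 at an unadjusted p under 0.05, beside 3.94% of all genes. With the block 1 of the 62 was called, beside 0.418% of all genes. An unadjusted p under 0.05 with the block was reached by 15 of the 62, beside 13.4% of all genes. The called gene, lower in LG, was Shisa6, which encodes an auxiliary subunit of AMPA receptors. Shisa6 had 16.1, 20.3, 18.8 and 23.7 TPM in LG libraries 1 to 4 and 24.0, 26.5, 26.9 and 27.1 TPM in HG libraries 1 to 4, so that all LG libraries lay below all HG libraries. On the scale of CPM, 1.82% of all genes lay wholly lower in LG. The log2 fold change of Shisa6 was -0.38 ± 0.07 (SE, edgeR with the block, adjusted p = 0.0418; adjusted p = 0.9999 without it). The call was lost without pair 1 (0.135), pair 2 (0.192) or pair 3 (0.104), with the preparation code as the block (0.145) and with counts summed per preparation (0.0992), with log2 fold changes from -0.40 to -0.34 in these fits. It held without pair 4 (0.0383).

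Among the other receptor subunit genes the TARP gene Cacng8 was abundant, with a mean of 32.9 TPM. Unlike the 3 TARP genes among the 33, it had log2 fold changes of -0.09 without the block and -0.08 with it. With the block and the offsets it had -0.19, and it was not called in any of these fits. Among auxiliary proteins Cnih2, a cornichon of AMPA receptors, averaged 65.5 TPM and Neto1, of kainate receptors, 60.2 TPM. Among scaffolds Gabarap averaged 403 TPM and Nlgn2, a neuroligin of inhibitory synapses, 231 TPM. Slc1a3, the glutamate transporter GLAST, averaged 165 TPM and the amino acid transporter gene Slc38a2 129 TPM. Glul, glutamine synthetase, averaged 434 TPM and Glud1, glutamate dehydrogenase, 279 TPM.

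In none of these abundant genes was LG against HG called without or with the block. Slc1a3, Glul, Glud1, Nlgn2, Slc38a2 and Neto1 differed between replicate numbers (edgeR F test, adjusted p from 6.5e-07 for Slc1a3 to 0.025 for Neto1). Slc1a3 had 247, 232, 79.6 and 77.5 TPM in LG and 246, 261, 86.6 and 91.0 TPM in HG, and Glul had 645, 628, 246 and 228 TPM in LG and 591, 684, 219 and 232 TPM in HG. Slc1a3 and Glul are also abundant in astrocytes, and Slc1a3 is on the astrocyte list. Glud1 was likewise higher in numbers 1 and 2. Nlgn2 ran the other way, with 181, 214, 253 and 302 TPM in LG and 160, 207, 255 and 273 TPM in HG. With the block and the GC and length offsets, 3 of the 62 were called, beside 1.72% of all genes. They were Shisa6 (log2 fold change -0.40, adjusted p = 0.00493), the GABA transaminase gene Abat (0.23, adjusted p = 0.0341) and the glutamate transporter gene Slc1a1 (0.22, adjusted p = 0.0385), each by edgeR.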

How the data were processed

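The authors deposited a table of raw counts per Ensembl gene for 8 RNA libraries, whole numbers that were not normalized. The submitters' processing notes name the build mm10 and the tools CASAVA 1.8.2, STAR, featureCounts and DESeq2. Neither annotation release nor strand setting is stated in the labels or file headers, nor is whether the mates of a read pair were counted separately; the totals exceed the read depth that the labels state. Of 56980 IDs, 52125 matched a symbol in GENCODE M21 (GRCm38) and 4855 did not.

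Testing used edgeR 4.0.16 (R 4.3.3). After filterByExpr and TMM scaling, LG was set against HG by the robust quasi-likelihood test over all 18905 genes, with Benjamini-Hochberg adjustment and a threshold of 0.05. An SE is the absolute log2 fold change divided by the square root of F. TPM was computed from the counts and the merged exon length and is not TMM-scaled, so that close libraries can order differently by TPM and by CPM; differences of pairs use log2(CPM + 0.5). Trends on GC content and length were fitted in each library (mgcv 1.9.3) and used as offsets (GC known for 97.5% of tested genes). DESeq2 1.42.0, limma 3.58.1 (voom), other scalings and filters, and left-out libraries, pairs or preparations were alternatives. The tests were tried on simulated counts.

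By their titles the libraries run 1 to 4 within each group, and the description codes are shared by number across LG and HG. Deviations from the group means of same-numbered libraries correlated at r from 0.558 to 0.762 across genes, so the numbers were taken to pair the libraries; the block is printed where it changes a call. Replicates differed by more than sampling noise (chi-square per degree of freedom at least 19.0). The labels speak of independent preparations, yet numbers 1 and 2 share a code, so n counts libraries. Without a block, p-values measure the spread between libraries. With the replicate block they measure the spread left once differences between numbers are removed.

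The members and lists were chosen with earlier results of these data known. Values in every library are given for the 3 most abundant members of each class and for members with an unadjusted p under 0.05 with or without the block; of the other pathway genes, called ones and the 2 most abundant of each list are named, except 1 item that is not reported here.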

Additional observations from a re-analysis of the deposited data

Results flagged for a closer look

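In a group of 4 libraries, a value was marked where its gap to the nearest other library, divided by the range of the group, exceeded Dixon's 95% critical value. Of 66 groups (33 genes in LG and in HG), 5 were marked, where chance marks about 1 in 20 (3.3). In LG, Grik1 was lowest in library 1 with 14.7 CPM, where the other LG libraries had 16.7 to 16.9 CPM. Gabrb2 was highest in LG library 2 with 10.3 CPM, where the others had 7.45 to 7.77 CPM. In HG, Grik5 was lowest in library 1 with 140.4 CPM, where the other HG libraries had 179 to 186 CPM. Gria3 was lowest in HG library 2 with 121 CPM, where the others had 142 to 145 CPM. Grin3a was lowest in HG library 2 with 172 CPM, where the others had 181.9 to 182.5 CPM.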

How the results depend on the processing

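The number of calls varied with the block, the offsets and the tool. With the replicate block 79 genes were called (325 with GC and length offsets as well), against 0 without it; the preparation code as the block gave 1, DESeq2 without a block 4, and the block with counts summed per preparation, chosen after seeing the data, 17. Among receptor genes the block gave 1 call, also with the offsets, and among the other pathway genes 1, and 3 with the offsets. Leaving out libraries or pairs gave 0 to 148 calls over all genes, 0 to 1 among receptor genes and 0 to 2 among the others, and 1954 to 4248 genes differing between numbers. In deviations from the group means, LG 3 correlated slightly better with HG 4 (r = 0.571) than with HG 3 (r = 0.558). The cause of these changes was not tested.

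Over 27 settings, 795 of 883 log2 fold changes of receptor genes kept their direction and their side of the threshold, 3 (all Grm5) passed it, and 85 in 16 genes changed sign, none of them called. With the replicate block and the GC and length offsets, or with the offsets alone, the log2 fold change became -0.0237 or -0.0243 for Cacng4, -0.0194 or -0.0242 for Gabbr2, 0.0627 or 0.0859 for Gabrb1, 0.135 or 0.143 for Gabrg1 and 0.114 or 0.115 for Grik2, and with the offsets alone 0.0533 for Grin2a. Without the preparation of numbers 1 and 2, first without a block and then with the replicate block (added after seeing the data), it was -0.0068 and -0.0068 for Cacng4, -0.0623 and -0.0453 for Gabra4, 0.149 and 0.0912 for Gabrg3, -0.226 and -0.182 for Gria1, 0.367 and 0.359 for Grin2b, -0.0087 and -0.0089 for Grin3a, -0.147 and -0.141 for Grm7 and 0.0449 and 0.258 for Grm8, and without a block -0.0109 for Gabbr2 and 0.0917 for Grin2a. Gabra4 was -0.0047 with the replicate block, -0.0062 with the preparation code as the block, -0.003 without the preparation of number 4 and -0.0156 with counts summed per preparation, which gave -0.0442 for Gria1 and 0.0133 for Grin2b. Grin2b was 0.0225 with limma-voom, and without the preparation of number 3 Grin2a was 0.0761 and Grin2c 0.123.

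Leaving out libraries or pairs, the log2 fold change ran from -0.0932 to 0.191 for Gabbr2, -0.403 to 0.409 for Gabra4, -0.621 to 0.371 for Gabrb1, -0.394 to 0.559 for Gria1, -0.0771 to 0.003 for Grik2, -0.0572 to 0.15 for Grik3, -0.432 to 0.232 for Grin2a, -0.647 to 0.195 for Grin2b, -0.351 to 0.143 for Grin2c, -0.464 to 0.0007 for Grm3, -0.16 to 0.233 for Grm7 and -0.673 to 0.0446 for Grm8. The median of a class ran from -0.337 to -0.0648 for GABA-A, -0.0032 to 0.285 for GABA-B, -0.0168 to 0.15 for kainate and -0.443 to -0.144 for metabotropic receptors. The kainate median was 0.0627 with the block and offsets, and 0.0146 without and 0.0141 with the block when numbers 1 and 2 were left out. The metabotropic median was -0.163 with limma-voom, -0.147 without and -0.141 with the block when numbers 1 and 2 were left out, and -0.137 with counts summed per preparation. With the strict filter no value was had for members under it, and the 8 members below 1 TPM are limited by depth.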
